A study of Mus musculus with 20 samples.

Results

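The Cyp4 fatty acid omega-hydroxylases of the liver were taken as 10 genes chosen by symbol, Cyp4a10, Cyp4a12a, Cyp4a12b, Cyp4a14, Cyp4a31, Cyp4a32, Cyp4f13, Cyp4f14, Cyp4f15 and Cyp4v3, out of 46095 symbols in the counts table. All 10 passed the low-count filter, as did 14440 symbols in all. Liver RNA of 20 mice was sequenced to ask what Pck1, the cytosolic phosphoenolpyruvate carboxykinase of gluconeogenesis, does in diet-induced steatohepatitis. The 4 groups of 5 mice were wild-type (WT) on chow, WT on the NASH (non-alcoholic steatohepatitis) diet, Pck1-cKO (KO) on chow and Pck1-cKO on the NASH diet. Each diet had been given for 24 weeks, and the labels give 31 to 33 weeks of age for every mouse. No source used here gives the promoter that drives the deletion, the strain or the composition of the NASH diet.

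Cytochrome P450 enzymes of the CYP4 families sit in the endoplasmic reticulum and place a hydroxyl group on the terminal (omega) carbon of fatty acids and eicosanoids, with electrons passed on from NADPH by cytochrome P450 reductase and cytochrome b5. The product is oxidised to a dicarboxylic acid, which peroxisomes shorten by beta-oxidation. In rodent liver, Cyp4a10 and Cyp4a14 are classical targets of the fatty acid receptor PPAR-alpha, the Cyp4a12 genes are male-biased under growth hormone and androgen control, and Cyp4f enzymes also act on leukotrienes.

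The 6 Cyp4a genes lie together on chromosome 4 of the mouse genome build GRCm38. In GENCODE coordinates Cyp4a12a spans 115299046 to 115332815 and Cyp4a12b 115411624 to 115439034. Cyp4a14, on the minus strand, spans 115486200 to 115496142, and Cyp4a10 spans 115518264 to 115533649. Cyp4a31 spans 115563649 to 115579015 and Cyp4a32 115600969 to 115621602. The Cyp4f genes lie on chromosome 17, with Cyp4f15 at 32685627 to 32703352, Cyp4f14 at 32905070 to 32917342 and Cyp4f13 at 32924688 to 32947402. Cyp4v3 lies on chromosome 8 at 45304944 to 45333216. All 10 are annotated as protein-coding.

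Several neighbours in the Cyp4a cluster are near-identical, which bears on every count given for them. Over 1527 coding bases, Cyp4a12a and Cyp4a12b were 98.5% identical, and 54.87% of the 50-base windows of Cyp4a12a occurred unchanged in Cyp4a12b. The stretch with 4 differing bases, coding bases 624 to 683 of each, is shown because it is one of the coding stretches that tell the pair apart (untranslated parts were not compared); capitals mark the bases that differ within the pair, and the sequences are those of GENCODE on GRCm38, 5′ to 3′.
Cyp4a12a: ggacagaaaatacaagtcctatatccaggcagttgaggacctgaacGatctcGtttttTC
Cyp4a12b: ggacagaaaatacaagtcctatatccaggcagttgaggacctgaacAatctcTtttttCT
Cyp4a10, Cyp4a31 and Cyp4a32 form the other near-identical set, over 1530 coding bases each. Cyp4a10 was 96.6% identical to Cyp4a31 and 97.2% to Cyp4a32, and Cyp4a31 and Cyp4a32 were 96.0% identical. Coding bases 200 to 259 hold 9 positions at which the set differs, again in capitals, and is shown because it is one of the stretches that tell these genes apart.
Cyp4a10: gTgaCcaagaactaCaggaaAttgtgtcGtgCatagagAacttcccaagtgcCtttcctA
Cyp4a31: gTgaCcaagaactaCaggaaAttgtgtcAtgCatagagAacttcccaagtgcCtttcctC
Cyp4a32: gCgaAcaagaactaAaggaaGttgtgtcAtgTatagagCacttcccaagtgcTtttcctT
Cyp4a14 stands apart from both sets: it was 75.3% identical to Cyp4a10, and none of its windows occurred in another of the 10 genes. The share of unique windows was 59.4% for Cyp4a10, 68.5% for Cyp4a31, 53.2% for Cyp4a32, 45.1% for Cyp4a12a and Cyp4a12b, and 97.4% to 98.0% for the Cyp4f genes. No source used here says how reads that match several genes were counted, so the split of counts within each near-identical set is uncertain.

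The libraries held 9958935 to 20601955 counts. Sex is not in the labels, and it was read from 4 Y-linked genes: the 5 WT chow libraries were male, and so were WT NASH replicate 4, KO chow replicates 1, 2 and 4, and all KO NASH libraries but replicate 2, while the other 7 were female (4 of WT NASH, 2 of KO chow and 1 of KO NASH). WT NASH against WT chow was therefore largely also a comparison of females with males, and KO NASH against WT NASH largely one of males with females. Values with sex as a term stand beside the pooled ones. In 6 libraries, 3 of WT chow (replicates 3 to 5), 2 of KO chow (replicates 4 and 5) and WT NASH replicate 4, levels fell with gene length (slopes of -0.33 to -0.24, against 0.003 to 0.19 in the other 14). WT NASH replicate 4 also stood apart from its group in some marker genes and in several Cyp4 genes, as given below. Summed hepatocyte markers were at 46700 to 120000 CPM in every group, and kidney markers at no more than 0.237 CPM; single genes of other marker lists differed between groups and are given beside each comparison. On chow, Pck1 had a mean of 3573 ± 1139 CPM in WT and 626 ± 175 in KO mice (SD, n = 5 each), and on the NASH diet 2290 ± 511 and 445 ± 112 CPM, with no overlap between genotypes in either diet. Levels in CPM are counts divided by the library size, after TMM scaling of that size, on a scale common to all libraries. Nothing in the sources says whether the mice of a group were litter mates, so p-values measure the spread between these 20 animals.

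Cyp4a14 and Cyp4a10 made up most of the Cyp4 message. Cyp4a14 was the highest of the 10 genes in all 4 groups per length of its exons, with 3506 ± 1818 RPKM (CPM divided by exonic length in kilobases) for WT and 5251 ± 1171 for KO mice on chow, and 317 ± 270 for WT and 2000 ± 999 for KO mice on the NASH diet (SD, n = 5 each). Cyp4a10 followed at 2133 ± 472, 2534 ± 681, 229 ± 159 and 931 ± 344 RPKM in that order of groups. In WT chow the next levels were 152 ± 35.2 RPKM for Cyp4v3, 115 ± 6.62 for Cyp4a32, 87.3 ± 32.9 for Cyp4a12a and 73.2 ± 22.2 for Cyp4f15. Cyp4a12b (58.7 ± 14.2), Cyp4a31 (42.8 ± 10.2), Cyp4f14 (28.8 ± 11.5) and Cyp4f13 (6.84 ± 1.80 RPKM) were lowest. Neighbours in this WT chow order overlapped in range, except Cyp4v3 with Cyp4a32 and with Cyp4a10, and Cyp4f14 with Cyp4f13. Cyp4a14 and Cyp4a10 overlapped in every group but KO chow. The order below that pair differed by group: Cyp4a31 was the third in KO NASH, at 116 ± 58.4 RPKM, and the ninth in WT NASH, at 4.51 ± 2.86 RPKM.

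**Figure D1:**
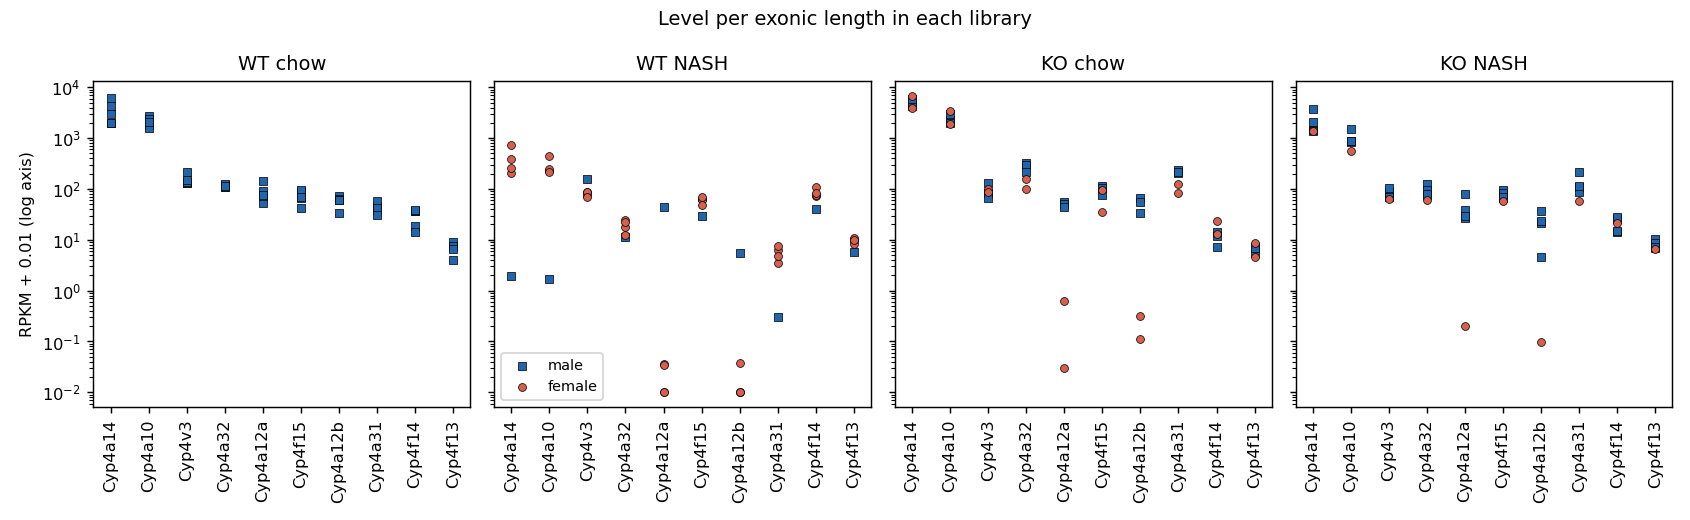
RPKM + 0.01 on a log axis of each Cyp4 gene in each library, 1 panel per group, with genes in the order of their WT chow means; squares are male and circles female libraries. Cyp4a14 and Cyp4a10 lead in every group mean, and in WT NASH the male library holds both near 2 RPKM.

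The share of all counts taken by the 10 genes was 1.01% to 1.81% for WT and 1.59% to 2.20% for KO mice on chow, and 0.0635% to 0.403% for WT and 0.689% to 1.64% for KO mice on the NASH diet. All 5 WT NASH libraries lay below all other 15 in this share. Within the Cyp4 counts, Cyp4a10 and Cyp4a14 together took 85.4% to 92.9% for WT chow, 90.0% to 96.4% for KO chow and 84.2% to 88.5% for KO NASH. For WT NASH they took 0.918% in replicate 4 and a median of 62.7% over the 5 libraries.

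WT mice on the NASH diet had less of most Cyp4a transcripts than WT mice on chow, and more Cyp4f14. Of the 10 genes, 6 were called by edgeR (adjusted p under 0.05), 5 lower and 1 higher, against 5.93% of all genes tested. The members' median log2 fold change was -2.96, and that of all genes tested was 0.01. Adding sex as a term left 2 of the 10 called, Cyp4a12b and Cyp4a32, against 1.11% of all genes. Without WT NASH replicate 4, the fit with sex as a term called 5, all lower, against 0.913% of all genes. Cyp4a10, Cyp4a14, Cyp4a31 and Cyp4a32 were among these 5, and Cyp4a12b was not. Each WT group then held 1 sex, so that fit took the sex difference from KO mice alone. The groups of 5 did not overlap for 7 of the 10, all Cyp4a genes lower and Cyp4f14 higher, where 6.15% of all genes did not overlap. In bulk liver, fewer cells of a type and less RNA per cell cannot be told apart. The 8 hepatocyte markers had a median log2 fold change of 0.07 (0.35 with sex as a term) and none of them was called by edgeR in either fit. Of the other marker lists, 2 of 5 red blood cell markers were lower, the globin genes Hbb-bs (-2.31) and Hbb-bt (-2.17), the first of them also with sex as a term. The macrophage marker Cd68 (1.01) and the T cell marker Cd3e (2.15) were higher, each as 1 of 5 markers in its list and neither with sex as a term. The part of these cells in the Cyp4 differences was not tested.

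Cyp4a10, a PPAR-alpha-inducible hydroxylase of medium-chain fatty acids, had 3765, 3376, 5835, 5113 and 4404 CPM in WT chow replicates 1 to 5 and 948, 485, 529, 3.53 and 452 CPM in WT NASH. Every WT NASH library lay below every WT chow library, and replicate 4, the male, lay far below the 4 females. The mean in WT NASH was 10.7% of that in WT chow, and the log2 fold change was -3.22 (SE 0.69, adjusted p = 0.00919 by edgeR). With sex as a term it was -3.85 and not called (adjusted p = 0.069 by edgeR, 1.12e-05 to 0.0709 over the alternatives).

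Cyp4a14, its most abundant relative, was at 5187, 5201, 16310, 11280 and 7619 CPM in the WT chow libraries and at 1904, 535, 989, 5.00 and 686 CPM in WT NASH. The groups did not overlap, and replicate 4 was again lowest, with 34 counts. Its log2 fold change was -3.47 (SE 0.77, adjusted p = 0.0111 by edgeR), and with sex as a term -4.10 (adjusted p = 0.0797 by edgeR, 1.43e-05 to 0.0797 over the alternatives).

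Cyp4a32, the member of the Cyp4a10 set with the tightest WT chow values, was at 186, 170, 189, 166 and 173 CPM in the WT chow libraries and at 37.8, 19.2, 27.7, 17.7 and 34.1 CPM in WT NASH. Here the male replicate 4 was within 1.09-fold of the lowest female. The log2 fold change was -2.69 (SE 0.305, adjusted p = 4.78e-05 by edgeR), and it stayed called with sex as a term at -2.22 (adjusted p = 0.00579 by edgeR, 5.45e-17 to 0.0216 over the alternatives). Cyp4a31 was at 97.8, 114, 146, 104 and 75.8 CPM in the WT chow libraries and at 16.1, 8.60, 11.8, 0.736 and 19.3 CPM in WT NASH. Its log2 fold change was -3.24 (SE 0.528, adjusted p = 0.00117 by edgeR), and -2.85 with sex as a term (adjusted p = 0.0636 by edgeR, 4.18e-09 to 0.0636 over the alternatives).

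Cyp4f14, which acts on leukotrienes as well as on fatty acids, moved the other way. It was at 89.5, 88.1, 44.5, 34.7 and 91.5 CPM in the WT chow libraries and at 264, 179, 181, 95.5 and 200 CPM in WT NASH. The male WT NASH library, at 95.5 CPM, lay just above the highest WT chow library, while the 4 females were 179 CPM or above. Its log2 fold change was 1.40 (SE 0.338, adjusted p = 0.0184 by edgeR), and with sex as a term 0.83 and not called (adjusted p = 0.376 by edgeR, 0.00144 to 0.757 over the alternatives). Without WT chow replicate 3 or WT NASH replicate 1 it was not called either, in a range of 1.24 to 1.56 over all libraries left out in turn.

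**Figure D2:**
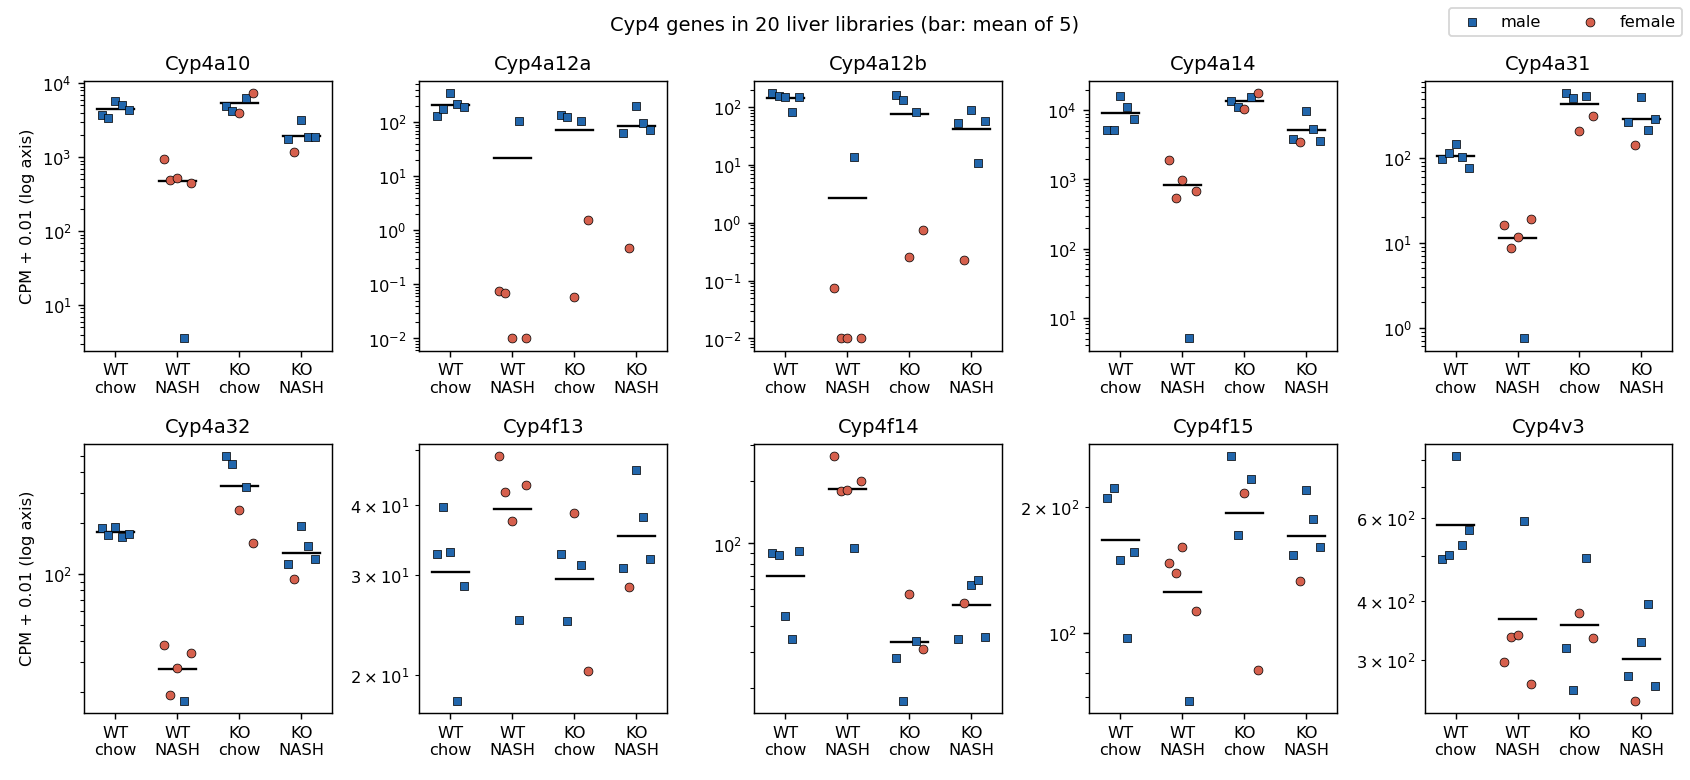
CPM + 0.01 on a log axis of each of the 10 genes in each library by group, with squares for male and circles for female libraries and a bar at the group mean (n = 5). Cyp4a10, Cyp4a14, Cyp4a31 and Cyp4a32 lie lowest in WT NASH, and the Cyp4a12 genes split by sex in every group that holds both.

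Cyp4a12a and Cyp4a12b, known as the arachidonate hydroxylases of male mice, followed sex. Cyp4a12a was at 131, 179, 343, 217 and 188 CPM in WT chow, all males. In WT NASH it was at 0.0646, 0.0593, 0, 107 and 0 CPM, and the value of 107 is the male. In KO chow it was at 135, 122, 0.0495, 105 and 1.52 CPM, and in KO NASH at 63.7, 0.470, 196, 95.5 and 70.5 CPM. Every one of the 13 male libraries was at 63.7 CPM or above and every one of the 7 females at 1.52 CPM or below.

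Cyp4a12b was at 172, 153, 147, 82.2 and 148 CPM in the WT chow libraries and at 0.0646, 0, 0, 13.4 and 0 CPM in WT NASH. It was at 159, 131, 0.248, 80.4 and 0.729 CPM in KO chow and at 51.9, 0.214, 87.9, 10.9 and 57.0 CPM in KO NASH. The 2 lowest males, at 10.9 and 13.4 CPM, were both on the NASH diet, and females were at 0.729 CPM or below. In a model with group and sex, male against female gave 2 calls among the 10 genes, against 1.02% of all genes: Cyp4a12a at 8.39 (SE 0.644, adjusted p = 6.65e-08 by edgeR) and Cyp4a12b at 8.21 (SE 0.547, adjusted p = 7.74e-09 by edgeR). These fitted log2 values rest on female libraries with few or no reads, so their size depends on the fit. Of lists of sex-biased liver genes, 11 of 15 tested male-biased genes were higher and 11 of 16 tested female-biased genes lower in males.

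Beyond sex, WT NASH against WT chow left Cyp4a12b called with sex as a term, at -3.63 (SE 0.691, adjusted p = 0.0135 by edgeR, 0.00192 to 0.122 over the alternatives), and -5.95 (SE 1.73, adjusted p = 0.046 by edgeR) without it. That contrast within males rests on WT NASH replicate 4, and without this library, with sex as a term, Cyp4a12b was not called. Cyp4a12a was not called by edgeR on all 20 libraries in any comparison of groups, fitted by group alone or with sex added. The call of Cyp4a12b without the sex term held in 6 of 20 fits that left out 1 library, those without WT chow replicate 1 or 2, WT NASH replicate 4, KO chow replicate 3 or 5 or KO NASH replicate 2, and was lost in the other 14 (log2 fold changes of -13.1 to -5.56 over the 20). The counts of Cyp4a12b per count of Cyp4a12a lay between 0.379 and 1.32 in WT chow, were 0.125 in WT NASH replicate 4, between 0.763 and 1.18 in KO chow males and between 0.114 and 0.814 in KO NASH males, so the pair did not keep 1 ratio within a group.

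Between KO and WT mice on chow, Cyp4a31 was the only one of the 10 genes called without sex as a term. This 1 call stands against 5.53% of all genes tested, so the count alone does not set the 10 genes apart. The median log2 fold change was 0.09 over the members and 0.001 over all genes. With sex as a term 3 were called, Cyp4a31 and Cyp4a32 higher and Cyp4f14 lower, against 5.84% of all genes. DESeq2 without that term called 4, against 9.62% of all genes. Only Cyp4a31 did not overlap between the 2 groups, where 4.91% of all genes did not. Of the marker lists, 1 of 8 hepatocyte markers, Serpina1a, was lower (-1.07) and 1 of 5 macrophage markers, Cd68, higher (1.03). With sex as a term 1 of 8 hepatocyte markers was lower, 0 macrophage markers were called and 1 of 2 tested adipocyte markers was higher. The part of these markers in the Cyp4 differences was not tested.

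Cyp4a31 was at 583, 518, 211, 541 and 317 CPM in KO chow, against 75.8 to 146 CPM in WT chow. The 3 KO males were at 518 to 583 CPM and the 2 KO females at 211 and 317 CPM, all above every WT library. The mean was 4.04 times that of WT chow, and the log2 fold change was 2.02 (SE 0.5, adjusted p = 0.0234 by edgeR) and 2.12 with sex as a term (adjusted p = 0.0202 by edgeR, 9.2e-05 to 0.0614 over the alternatives). Without WT chow replicate 4 or 5, or KO chow replicate 1 or 2, the gene was no longer called; these fits gave log2 fold changes within a range of 1.89 to 2.19 over all libraries left out in turn.

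Cyp4a32 was at 499, 447, 239, 328 and 153 CPM in KO chow. Its 3 KO males, at 328 to 499 CPM, and 1 KO female lay above the highest WT chow library (189 CPM), and the other female lay below the lowest (166 CPM). The log2 fold change was 0.92 (SE 0.288, adjusted p = 0.068 by edgeR) and, with sex as a term, 1.06 (adjusted p = 0.0316 by edgeR, 0.00282 to 0.213 over the alternatives). Cyp4a10 was at 4888, 4176, 3999, 6346 and 7312 CPM and Cyp4a14 at 13640, 11110, 10340, 15530 and 17670 CPM in KO chow, ranges that overlapped those of WT chow, and neither was called. Cyp4f14 was at 28.1, 17.3, 57.0, 34.0 and 30.9 CPM in KO chow, with 4 of 5 libraries below the lowest WT chow library. Its log2 fold change was -1.06 (SE 0.336, adjusted p = 0.0714 by edgeR), and -1.37 with sex as a term (adjusted p = 0.0216 by edgeR, 0.00615 to 0.19 over the alternatives).

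On the NASH diet, KO livers held more of 3 Cyp4a transcripts than WT livers and less Cyp4f14. These KO mice were mostly male and the WT mice mostly female. Of the 10 genes 4 were called, 3 higher and 1 lower, against 9.65% of all genes tested. The median log2 fold change was 2.02 over the members and 0.004 over all genes. With sex as a term 3 were called (Cyp4a31, Cyp4a32 and Cyp4f14), against 4.33% of all genes. The groups did not overlap for 5 of the 10, those called and Cyp4a10, where 14.1% of all genes did not. Of the marker lists, 2 of 5 endothelial markers were higher, Lyve1 (1.62) and Kdr (0.66), and the adipocyte marker Cfd was at 3.59 to 54.4 CPM in KO NASH against at most 0.0646 CPM in WT NASH. The hepatocyte marker Serpina1a (-0.82), the macrophage marker Timd4 (-1.42) and Cela1 of the pancreas list (-3.16) were lower, each as the single call of its list. Cfd and Cela1 stayed called with sex as a term, and the part of these markers in the Cyp4 differences was not tested.

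Cyp4a31 showed the widest separation, at 268, 143, 531, 215 and 293 CPM in KO NASH against 0.736 to 19.3 CPM in WT NASH. The lowest KO library, the female at 143 CPM, lay above all 4 WT NASH females. Its mean was 25.6 times that of WT NASH, and the log2 fold change was 4.67 (SE 0.563, adjusted p = 5.68e-05 by edgeR), or 4.33 with sex as a term (adjusted p = 0.000991 by edgeR, 2.84e-19 to 0.00198 over the alternatives). Cyp4a32 was at 115, 92.8, 193, 146 and 122 CPM in KO NASH against 17.7 to 37.8 CPM in WT NASH. Its log2 fold change was 2.29 (SE 0.3, adjusted p = 0.000143 by edgeR), and 1.91 with sex as a term (adjusted p = 0.00274 by edgeR, 4.16e-12 to 0.0221 over the alternatives). Both calls held with each library left out in turn.

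Cyp4a14 was at 3799, 3525, 9655, 5369 and 3657 CPM in KO NASH against 5.00 to 1904 CPM in WT NASH. The KO female, at 3525 CPM, was above the highest WT NASH female. The log2 fold change was 2.66 (SE 0.743, adjusted p = 0.0294 by edgeR), and 3.22 with sex as a term (adjusted p = 0.072 by edgeR, 0.000578 to 0.0923 over the alternatives). It was not called without WT NASH replicate 2 or 5 or KO NASH replicate 3, in a range of 2.31 to 3.23 over all libraries left out. Cyp4a10 was at 1743, 1192, 3163, 1864 and 1855 CPM in KO NASH, above the 948 CPM of the highest WT NASH library, and just missed the threshold (adjusted p = 0.0562 by edgeR).

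Cyp4f14 was at 34.5, 51.8, 62.8, 66.7 and 35.5 CPM in KO NASH, below all 5 WT NASH libraries (95.5 to 264 CPM). The log2 fold change was -1.87 (SE 0.343, adjusted p = 0.00209 by edgeR), and -1.42 with sex as a term (adjusted p = 0.0369 by edgeR, 2.83e-06 to 0.263 over the alternatives). The 4 WT NASH females were at 179 CPM or above and the KO NASH female at 51.8 CPM. With sex as a term and without WT NASH replicate 4 it was not called.

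**Figure D3:**
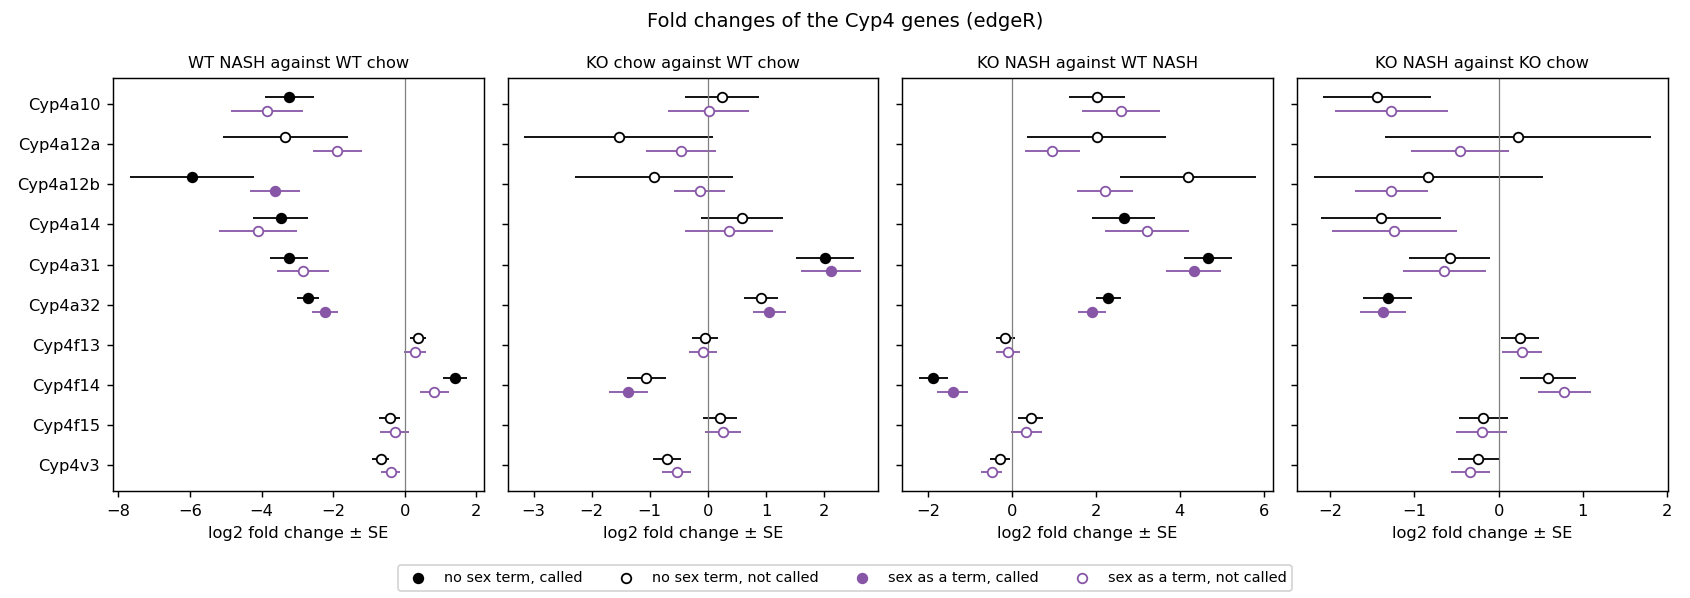
log2 fold change ± SE (edgeR) of the 10 genes in 4 comparisons of groups, in black without and in purple with sex as a term; filled points were called at an adjusted p under 0.05. Cyp4a31 and Cyp4a32 lie right of 0 in both genotype comparisons and left of 0 in both diet comparisons, and Cyp4f14 lies on the opposite side in each.

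Between the diets in KO mice, 1 of the 10 genes was called, against 3.29% of all genes tested: Cyp4a32 fell by 1.32 on the log2 scale (SE 0.29, adjusted p = 0.0208 by edgeR). It was again the only call with sex as a term, against 3.98% of all genes. The members' median log2 fold change was -0.41 and that of all genes -0.02. Cyp4a32 was at 153 to 499 CPM in KO chow and 92.8 to 193 CPM in KO NASH, ranges that overlapped, and it was not called without KO chow replicate 1 or KO NASH replicate 1, 2 or 5 (-1.53 to -1.13 over all libraries left out). Cyp4a10 and Cyp4a14 did not overlap between the diets, with 3999 to 7312 against 1192 to 3163 CPM and 10340 to 17670 against 3525 to 9655 CPM, and were not called (adjusted p = 0.196 and 0.251 by edgeR). Such separation was seen in 8.50% of all genes. In this comparison 2 of 5 red blood cell markers, Hbb-bs (-2.57) and Hbb-bt (-2.00), were lower, with or without sex as a term. The cholangiocyte marker Sox9 (1.83) and the stellate cell marker Col1a1 (2.26) were higher in both fits, each as 1 of 5 markers in its list. With sex as a term 1 of 2 tested adipocyte markers was also higher. The part of these markers in the Cyp4 differences was not tested.

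Whether the diet changed the 10 genes differently in the 2 genotypes was tested by the interaction, the genotype difference under the NASH diet minus the same difference under chow. edgeR called 0 of the 10, against 0.139% of all genes tested. Its unadjusted p was under 0.05 for 3 of the 10 (Cyp4a12b, Cyp4a31 and Cyp4a32) and for 1191 of the 14440 genes tested. DESeq2 called 1, Cyp4a31, against 1.31% of all genes, and with sex as a term edgeR called 0, against 0.0277%. Relative to WT chow means, KO NASH means were 43.7% for Cyp4a10, 57.0% for Cyp4a14, 75.7% for Cyp4a32 and 270% for Cyp4a31, and WT NASH means were 10.7%, 9.03%, 15.4% and 10.5%.

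The proportion of Cyp4a31 to Cyp4a10, its near-identical neighbour, was read within each library. There were 0.0172 to 0.0337 Cyp4a31 counts per Cyp4a10 count in WT chow and 0.0170 to 0.0427 in the 4 WT NASH females. KO mice had ratios of 0.0433 to 0.124 on chow and 0.115 to 0.168 on the NASH diet, above every one of those 9 libraries. Within KO chow the 2 females (0.0433 and 0.0528) lay below the 3 males (0.0853 to 0.124), while the KO NASH female (0.120) lay among the males. WT NASH replicate 4 had a ratio of 0.208, from 5 and 24 counts. These ratios are a description with no test, and with reads that match both genes the true proportions may differ. Cyp4a14, whose coding sequence shares no 50-base window with the others, held 1.10 to 3.05 counts per Cyp4a10 count over all 20 libraries.

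**Figure D4:**
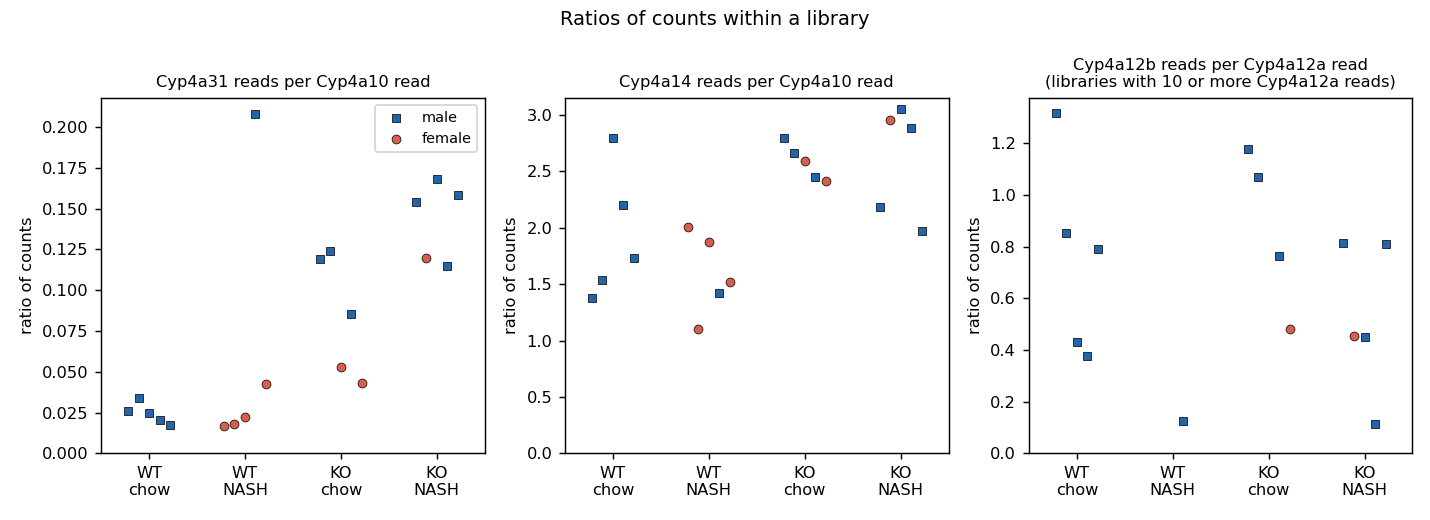
Ratios of counts within each library by group: Cyp4a31 to Cyp4a10 (left), Cyp4a14 to Cyp4a10 (middle) and Cyp4a12b to Cyp4a12a (right, libraries with at least 10 counts of Cyp4a12a); squares are male and circles female libraries. On the left, all 10 KO libraries lie above the 5 WT chow and the 4 female WT NASH libraries.

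The remaining members were not called by edgeR on all 20 libraries in any comparison of groups, fitted by group alone or with sex added. Without WT NASH replicate 4, edgeR with no sex term called 7 of the 10 genes lower in WT NASH against WT chow. That fit set females against males. The 7 are more than the Cyp4a genes. Cyp4f13 had a higher mean in the 4 WT NASH females (42.9 CPM) than in WT chow (30.4 CPM), so Cyp4f15 or Cyp4v3 was among the 7. Cyp4f13 lay at 18.0 to 39.6 (WT) and 20.3 to 38.6 CPM (KO) on chow and 25.0 to 48.8 (WT) and 28.6 to 46.1 CPM (KO) on the NASH diet. Cyp4f15 lay at 97.2 to 222, 81.6 to 265, 68.6 to 160 and 133 to 220 CPM in the same order, and all 4 ranges overlapped. Cyp4v3 is a fatty acid hydroxylase whose human counterpart is linked to a retinal dystrophy with crystals. It lay at 491 to 815 (WT) and 259 to 494 CPM (KO) on chow and at 266 to 593 (WT) and 245 to 394 CPM (KO) on the NASH diet. The highest WT NASH value of Cyp4v3, 593 CPM, was that of the male replicate 4, and the 4 females were at 266 to 339 CPM. Of 10 further Cyp4 genes, 4 were tested (Cyp4b1, Cyp4f16, Cyp4f17 and Cyp4f18), and none of them was called in any of the 6 comparisons; their summed level was 25.3 to 84.6 CPM over the 20 libraries for all 10.

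WT NASH replicate 4 departed from its group in 5 of the 6 Cyp4a genes, upwards in the male-biased pair and downwards in 3 others. Cyp4a12a was at 107 CPM and Cyp4a12b at 13.4 CPM, against at most 0.0646 CPM for either in the other 4 libraries. Cyp4a10, at 24 counts, was 128 times below the lowest of the other 4 WT NASH libraries, Cyp4a14 107 times and Cyp4a31 11.7 times, while Cyp4a32 was 1.09 times and Cyp4f14 1.88 times below. Of 28 tested PPAR-alpha target genes, 22 were lowest in replicate 4 among the 5 WT NASH libraries, against 40.9% of all genes tested, and their median log2 ratio to the other 4 was -1.27, against -0.06 for all genes. Ppara itself was at 148 CPM in replicate 4, against 337 to 381 CPM in the other 4 and 198 to 460 CPM in WT chow. This library also had the lowest depth (9958935 counts), a negative length slope (-0.25) and a TMM factor of 0.683. Several summed marker lists stood apart in it, most of them mainly through 1 gene but the stellate list through more. Stellate markers summed to 185 CPM against 94.9 to 126 in the other 4. Lrat, Rgs5, Col3a1 and Col1a1 lay above the range of the other 4, and Des below it. The adipocyte marker Fabp4 was at 55.5 against 13.1 to 24.4 CPM. Cholangiocyte markers summed to 531 CPM against 48.6 to 161 in the other 4, of which Spp1 made up 522 CPM, and Krt7, Krt19, Epcam and Sox9 lay within the range of the other 4. Red blood cell markers summed to 179 against 25.0 to 38.6 CPM, mostly through Alas2 (149.8 against 6.52 to 10.5 CPM), a gene called higher in males (2.77). The globin gene Hbb-bs was at 16.6 against 8.25 to 14.6 CPM and Hbb-bt at 4.855 against 1.187 to 3.616 CPM. Hba-a2 was at 1.765 against 0.3027 to 1.679 CPM, while Hba-a1 lay within the range of the other 4. Pancreas markers were at 107 against 11.7 to 20.7 CPM, nearly all Cela1, with Prss2, Pnlip and Cpa1 at 0 in the group. Hepatocyte markers summed to 49910 against 76280 to 96160 CPM, mostly through Alb (37080 against 63320 to 80320 CPM). Apoa1, Ttr and Hnf4a were also below the other 4 libraries, Tat and Serpina1a above them, and Cps1 and Apoc3 within their range. Their part in the low Cyp4a values was not tested, and within WT NASH this library cannot be told apart from male sex. Without this library WT NASH was all female and WT chow all male, and the fits given next had no sex term. Diet and sex then cannot be told apart in WT mice. On the NASH diet, WT females then stood against KO mice that were all male but replicate 2. Leaving this library out, edgeR called 8 of the 10 genes in WT NASH against WT chow, where 11.7% of all genes were called. It called 7 between genotypes on the NASH diet (6.60% of all genes), 4 between them on chow (7.53%), 3 between diets in KO mice (5.40%) and 3 for the interaction (0.981%). The share of all genes called was thus also higher than with this library, except between genotypes on the NASH diet, where it was lower.

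**Figure D5:**
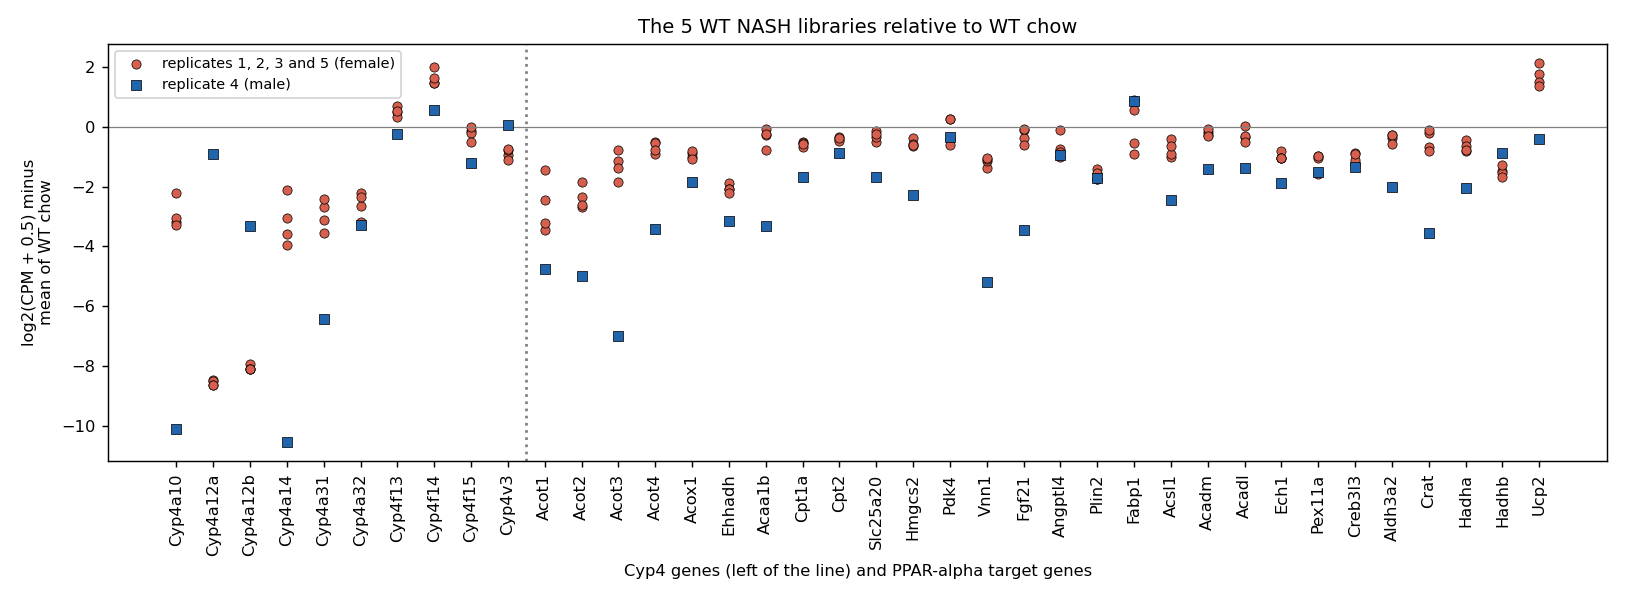
log2(CPM + 0.5) of the 5 WT NASH libraries minus the mean of the 5 WT chow libraries, for the 10 Cyp4 genes and the 28 tested PPAR-alpha target genes; the square is the male replicate 4 and circles are the 4 females. Replicate 4 is the lowest for Cyp4a10, Cyp4a14 and Cyp4a31 and for 22 of the 28 target genes.

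The other genes of the pathway were read from lists, and the shares of all genes called apply to each list below. They were 5.93% in WT NASH against WT chow, 5.53% in KO chow against WT chow and 9.65% in KO NASH against WT NASH. Between diets in KO mice the share was 3.29%. With sex as a term the shares were 1.11%, 5.84%, 4.33% and 3.98% in that order. Single calls in the longer lists lie near such shares. Of 28 tested PPAR-alpha target genes, 0 were higher and 10 lower in WT NASH against WT chow (median log2 fold change -0.94), and with sex as a term 3 were lower. Among the most abundant called were the peroxisomal bifunctional enzyme Ehhadh (-2.56), the lipid droplet protein Plin2 (-1.81) and the mitochondrial trifunctional subunit Hadha (-0.89). In KO chow against WT chow 6 were higher and 0 lower (median 0.82; 3 and 0 with sex as a term), among them Ehhadh (2.44), the acyl-CoA dehydrogenase Acadl (0.81) and the peroxisome proliferation factor Pex11a (1.17). In KO NASH against WT NASH 6 were higher and 0 lower, with or without sex as a term (median 1.03), among them Ehhadh (2.63), Pex11a (1.73) and the carnitine carrier Slc25a20 (0.98). Between diets in KO mice Ehhadh and Plin2 were lower and none was higher. On chow, Ehhadh lay at 756 to 5149 CPM for WT and 3399 to 14680 for KO mice, and on the NASH diet at 183 to 444 CPM for WT and 1694 to 3734 for KO mice. Ppara, the receptor gene, was not called in any of these comparisons.

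Of 19 genes for the fate of omega-hydroxylated fatty acids, a list that overlaps with the one above and also holds Ehhadh, 1 was higher and 4 lower on the NASH diet in WT mice, 0 higher and 1 lower on it in KO mice, 3 higher and 1 lower in KO than in WT mice on chow, and 5 higher and 0 lower in KO than in WT mice on the NASH diet. The peroxisomal isomerase Eci2 was among those lower in WT NASH (-1.49) and higher between genotypes on that diet (1.12), and the peroxisomal enzyme Hsd17b4 was higher in KO mice on both diets (0.75 on chow and 0.85 on the NASH diet). With sex as a term these counts were 0 and 0, 0 and 2, 3 and 0, and 3 and 0. Of the 4 electron donors of microsomal P450 enzymes (Por, Cyb5a, Cyb5b and Cyb5r3), Cyb5b was higher in WT NASH against WT chow (1.27), Cyb5a (-1.92) and Cyb5b (-0.77) were lower in KO NASH against WT NASH, and no other was called in the comparisons of groups. Cyb5b stayed called in WT NASH against WT chow with sex as a term, and the other 2 calls did not.

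Of 14 regulators, 4 were higher in WT NASH against WT chow: the estrogen receptor gene Esr1 (1.20), the growth hormone signal transducers Stat5a (1.75) and Stat5b (1.31), and Cux2 (4.73), a repressor known from female liver. None of them stayed called with sex as a term. In KO NASH against WT NASH, Ghr (-1.09), which encodes the growth hormone receptor, Esr1 (-1.98) and Cux2 (-5.21) were lower, and all 3 stayed called with sex as a term. Ghr was also lower in KO chow against WT chow (-0.93). Cux2 itself was lower in males than in females (-3.55), and WT NASH replicate 4 held 0.147 CPM of it.

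Over the 20 libraries, the genes whose log2 CPM followed each member most closely were read among 9090 genes outside the family, as a description, since the libraries share the groups and sexes above. Among the closest genes to Cyp4a10 were Retsat (Pearson r = 0.92) and Alas1 (0.90), and among those to Cyp4a14 were Retsat (0.93) and Hadha (0.92). Cyp4a31 was closest to Slc27a1 (0.94), Esrra (0.94) and Cidec (0.94), and Cyp4a32 to Elmod3 (0.93), Gys2 (0.93) and Zfp612 (0.93). Cyp4a12a was closest to the Y-linked genes Ddx3y, Kdm5d and Eif2s3y (0.98 each), a likeness that within the 13 males fell to 0.47, -0.26 and 0.47. Cyp4f14 was closest to Car8 (0.93), Gamt (0.93) and Pzp (0.92). Between members, r was 0.99 for Cyp4a10 with Cyp4a14, 0.97 for Cyp4a12a with Cyp4a12b, 0.91 for Cyp4a31 with Cyp4a32, and -0.77 and -0.78 for Cyp4f14 with Cyp4a31 and Cyp4a32.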

How the data were processed

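Per the labels' protocols, total liver RNA was extracted with Trizol, checked on a Bioanalyzer and made into Illumina libraries. HISAT2 2.0.4 and the build GRCm38 are named in the submitters' processing notes. No source used here gives the counting program, its annotation, its use of strand or its treatment of reads matching several genes. The authors deposited raw counts per gene symbol in 1 table with a column per mouse, whose names call the diet HFD; these were matched to the NASH groups.

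Counts were tested in R 4.3.3 with edgeR 4.0.16: filterByExpr (minimum count 10), TMM scaling, 1 coefficient for each of 4 groups fitted to all 20 libraries, glmQLFTest, Benjamini-Hochberg adjustment over 14440 genes, called under 0.05. Male against female used a model with group and sex. Libraries with at least 100 counts over Ddx3y, Kdm5d, Eif2s3y and Uty were called male (13 of 20). The length slope regressed log2 CPM, relative to the mean library, on log2 exonic length over 9743 genes. RPKM, positions and coding sequences used GENCODE M21. The procedure was tested on simulated counts.

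The alternatives were RLE scaling, other filters, DESeq2 1.42.0, only the groups compared, a replicate block, sex and length slope as terms, males alone, near-identical genes summed, KO NASH replicates 1 and 5 summed, and each library left out. Sex as a term without WT NASH replicate 4 was added after the data were seen. The members, lists and tests were chosen with earlier results of these data known. All 10 members are named; of each list, up to 4 called genes with the highest mean CPM, and for likeness the 3 genes with the highest r among those with a mean of at least 5 CPM. Some genes that this rule names are not reported here. Single genes outside this rule (Ppara, and Cux2 and marker genes in replicate 4) were chosen after their values were seen.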

Additional observations from a re-analysis of the deposited data

Results flagged for a closer look

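In 8 of the 40 sets of 5 libraries (10 genes in 4 groups), the highest or lowest library stood apart from the others by Dixon's test on log2(CPM + 0.5), with a critical value of 0.71; chance gives about 1 in 20. Of the 8, 5 concerned WT NASH replicate 4, the male of that group. It was the lowest for Cyp4a10 (3.53 CPM), Cyp4a14 (5.00 CPM) and Cyp4a31 (0.736 CPM) and the highest for Cyp4a12a (107 CPM) and Cyp4a12b (13.4 CPM). KO NASH replicate 2, the female of its group, was the lowest for Cyp4a12a (0.470 CPM). WT chow replicate 4 was the lowest for Cyp4a12b (82.2 CPM), and WT chow replicate 3 the highest for Cyp4v3 (815 CPM); both are males with a negative length slope.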

How the results depend on the processing

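None of the 16 fold changes given for members changed sign under any alternative. The counts of members called moved by over 1.5 times as follows, with the share of all genes called in parentheses. WT NASH against WT chow (6; 5.93%) gave 2 with sex as a term (1.11%), 2 with only the groups compared (2.74%) and 3 of 7 features with near-identical genes summed (5.91%). KO chow against WT chow (1; 5.53%) gave 3 with sex as a term (5.84%), 4 by DESeq2 (9.62%), 2 with the replicate block (6.11%), 2 with the length slope (11.5%), 3 with both terms (13.8%), 3 in males alone (6.23%), 0 with near-identical genes summed (5.52%) and 3 with sex as a term without WT NASH replicate 4 (9.60%). KO NASH against WT NASH (4; 9.65%) gave 2 with sex as a term without WT NASH replicate 4 (0.702%). KO NASH against KO chow (1; 3.29%) gave 2 with only the groups compared (2.33%), 2 with both terms (9.43%), 2 with sex as a term without WT NASH replicate 4 (4.38%), 0 with KO NASH replicates 1 and 5 summed (1.23%) and 0 with near-identical genes summed (3.28%). The interaction (0; 0.139%) gave 1 by DESeq2 (1.31%), 2 with the length slope (1.27%) and 3 in males alone (0.0314%). Male against female (2; 1.02%) gave 1 with the pair summed to 1 feature (1.01%). The cause was not tested. Leaving out each library in turn gave 4 to 8, 0 to 4, 3 to 7, 0 to 3, 0 to 3 and 2 to 2 calls in these 6 comparisons, and the shares of all genes called were 2.82% to 11.7%, 2.37% to 8.32%, 4.89% to 11.8%, 1.01% to 5.40%, 0.0272% to 0.981% and 0.688% to 1.17%. In KO chow against WT chow, the count was 0 without WT chow replicate 5 or KO chow replicate 1 or 2 and 2 without KO chow replicate 3 or 5; in KO NASH against KO chow it was 0 without KO chow replicate 1 or KO NASH replicate 1, 2 or 5. The call of Cyp4a12b in WT NASH against WT chow was lost in 14 of these 20 fits, and that of Cyp4f14 without WT chow replicate 3 or WT NASH replicate 1.

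Replicate numbers showed no clear pairing of the samples: same-numbered libraries correlated at -0.403 to 0.576, over 0.1 in 14 of 30 pairs. The closest library of another group had the same number in 17 of 60 comparisons. Sex and length slope were not taken out of these correlations. No source used here says what the numbers stand for, so the replicate block rests on the number alone. KO NASH replicates 1 and 5 were the most alike but differed by more than sampling noise and were kept as 2 samples. In males alone, WT NASH is replicate 4, so that WT NASH against WT chow gave log2 fold changes of -10.34 for Cyp4a10 and -10.85 for Cyp4a14; with 24 counts of Cyp4a10 there, depth limits what can be said of their size. Statements on counts cover counting error only.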
